A study of Mus musculus with 2 samples.

Results

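The miR-128 genes of the mouse are Mir128-1, inside the gene R3hdm1, and Mir128-2, inside the gene Arpp21. They were described here by name, as 2 of the 1973 annotated miRNA genes counted in embryonic forebrain at day 14.5. Small RNA of the B6NCrl strain was sequenced in 2 libraries, labelled as biological replicates 1 and 2, with no treatment named. Each library is labelled as one forebrain, with a different collection day, yet the sex is given as pooled and the donor identifier is shared, so part of their spread may be technical. The libraries form 1 group, and no comparison between conditions exists.

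miR-128 is among the miRNAs most strongly associated with the brain, and it accumulates as neurons mature. Both hairpins are processed from introns, and in both the main product is known to come from the 3p arm and to be the same small RNA. In mice, loss of miR-128 from forebrain neurons is known to cause motor hyperactivity and seizures. Of the host genes, R3hdm1 encodes a protein with an R3H nucleic acid binding domain, and Arpp21 encodes a cAMP-regulated phosphoprotein that is abundant in the striatum.

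The sequences matter first, because they decide which reads could be counted. The hairpins of the RefSeq miRNA table (GRCm38.p6) are given below 5′ to 3′, with the longest run that they share in capitals.
Mir128-1 hairpin: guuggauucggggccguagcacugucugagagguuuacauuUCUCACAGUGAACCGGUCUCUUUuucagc
Mir128-2 hairpin: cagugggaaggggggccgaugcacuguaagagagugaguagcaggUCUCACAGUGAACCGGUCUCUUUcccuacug
The mature miRNAs follow, with the seed (bases 2 to 8), which pairs with targets, in capitals.
mmu-miR-128-3p of both hairpins: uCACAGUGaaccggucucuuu
mmu-miR-128-1-5p of Mir128-1: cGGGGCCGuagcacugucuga
mmu-miR-128-2-5p of Mir128-2: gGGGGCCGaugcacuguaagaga

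The hairpins are 70 nt long for Mir128-1 and 76 nt for Mir128-2, and 55 of 77 aligned positions (71.4%) are identical. The shared run is 23 nt long and contains the whole 21-nt mature miR-128-3p. The 5p arms have the same seed but differ elsewhere. They are identical at 16 of 23 aligned positions (69.6%), and their longest common run is 7 nt. In the RefSeq table no other mature miRNA of 1679 has the 5p seed GGGGCCG at bases 2 to 8.

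A read of the annotated mature miR-128-3p therefore matches both loci. In the deposited tables, reads that map to several places are kept in a total of their own and enter no gene count. Among 2202 annotated miRNA hairpins, the sequence of miR-128-3p occurs in 2, which are Mir128-1 and Mir128-2. A 3p read that runs 1 base past the annotated 3′ end is no longer shared by the hairpins. The 5p sequences each occur in 1 hairpin. Of the 51 windows of 20 nt along the Mir128-1 hairpin, 47 occur in no other hairpin, and of the 57 along Mir128-2, 53 do. The 4 shared windows of each start at positions 42 to 45 of Mir128-1 and 46 to 49 of Mir128-2. The gene counts below are thus counts of reads that mapped to 1 place. The search covered annotated hairpins only, and the aligner is not given. Whether each read came from the locus where it was counted was therefore not tested. The tables do not separate the arms, so the level of miR-128-3p itself cannot be read from them.

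**Figure D1:**
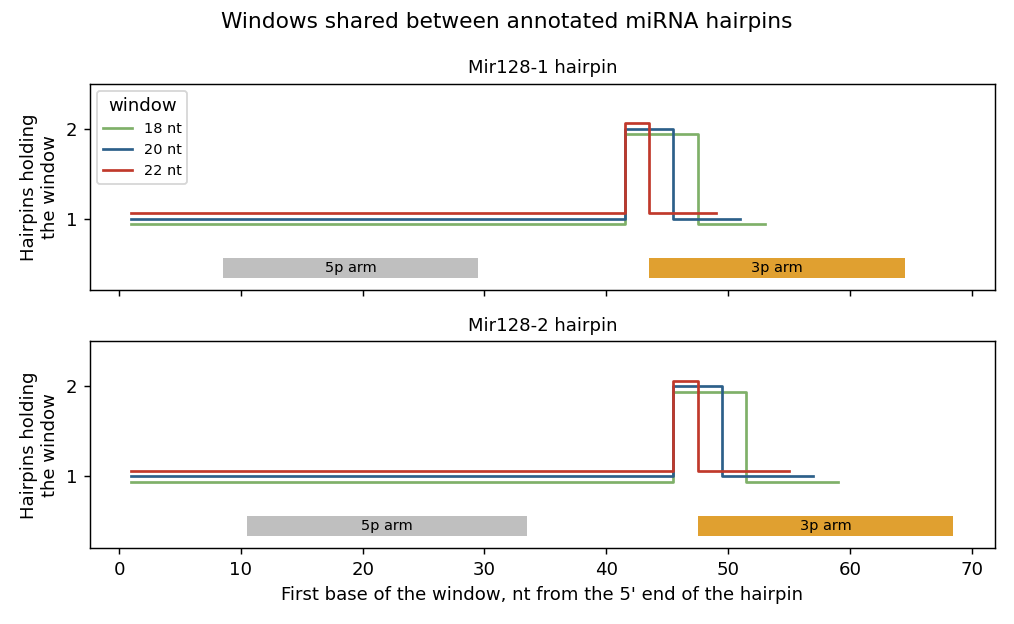
Number of annotated miRNA hairpins (vertical axis) that hold each window of 18, 20 or 22 nt, by the first base of the window in nt from the 5′ end of the hairpin, for Mir128-1 (top) and Mir128-2 (bottom). The lines are offset slightly so that each can be seen, and the bars mark the mature arms. Windows present in 2 hairpins start at position 42 in Mir128-1 and at position 46 in Mir128-2, just before the 3p arm, and none lies in the 5p arm.

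On mm10, Mir128-1 (ENSMUSG00000065520.1) lies at chr1:128202361-128202430 on the plus strand. It is in an intron of R3hdm1 in both transcripts that span it. In the transcript R3hdm1-201 this is intron 19 of 26, which is 14107 nt long, and the hairpin begins 5263 nt after the upstream exon. Mir128-2 (ENSMUSG00000065441.1) lies at chr9:112118636-112118711 on the minus strand. It is in an intron of Arpp21 in all 9 transcripts that span it, 471 nt after the upstream exon. In the transcript Arpp21-223 this is intron 19 of 20, which is 51873 nt long. Each hairpin lies on the strand of its host gene, and neither overlaps an exon of the host. The positions are those of GENCODE M21, whose entries carry a later version number for both genes than the annotation used for the counts.

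Both genes were well covered. Mir128-1 had 7387 counts in replicate 2 and 4119 counts in replicate 1. Mir128-2 had 6023 counts in replicate 2 and 3759 counts in replicate 1. All of these reads lay on the strand of the gene, with 0 opposite-strand counts at either locus in either library. The libraries held 7946585 counts at miRNA genes in replicate 2 and 7080317 in replicate 1, out of 20638071 and 18598385 reads, and a further 42.7% ± 0.822 of the reads (SD, n = 2) mapped to several places.

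Per 1000000 counts at miRNA genes (CPM), Mir128-1 stood at 930 in replicate 2, with a 95% exact Poisson interval of 909 to 951, and at 582 in replicate 1, with an interval of 564 to 600. Its mean was 756 ± 246 CPM (SD, n = 2). Mir128-2 stood at 758 CPM in replicate 2 (739 to 777) and at 531 CPM in replicate 1 (514 to 548), with a mean of 644 ± 161 CPM (SD, n = 2). These intervals, and all others below, were computed from the read counts of each gene and reflect counting error alone. PCR copies cannot be told from separate molecules, so the intervals may be too narrow. For both genes replicate 2 was the higher library, and the intervals of the libraries did not overlap. Such differences were common, since 213 of 445 genes tested (47.9%) differed between the libraries in a test of counting error alone, given below. A read covers 1 arm, whatever the length of the hairpin, so the counts were not divided by length.

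Together the loci held 1688 CPM in replicate 2 and 1113 CPM in replicate 1, or 0.169% and 0.111% of the counts at miRNA genes. Mir128-1 ranked 86th in replicate 2 and 102nd in replicate 1 among the 1973 genes, and 90th by mean CPM. Mir128-2 ranked 90th in replicate 2 and 104th in replicate 1, and 97th by mean CPM. Both were above the median of the 399 detected genes, those with at least 10 counts in each library, which was 81.0 CPM. The most abundant gene, Mir99a, stood at 301081 CPM.

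**Figure D2:**
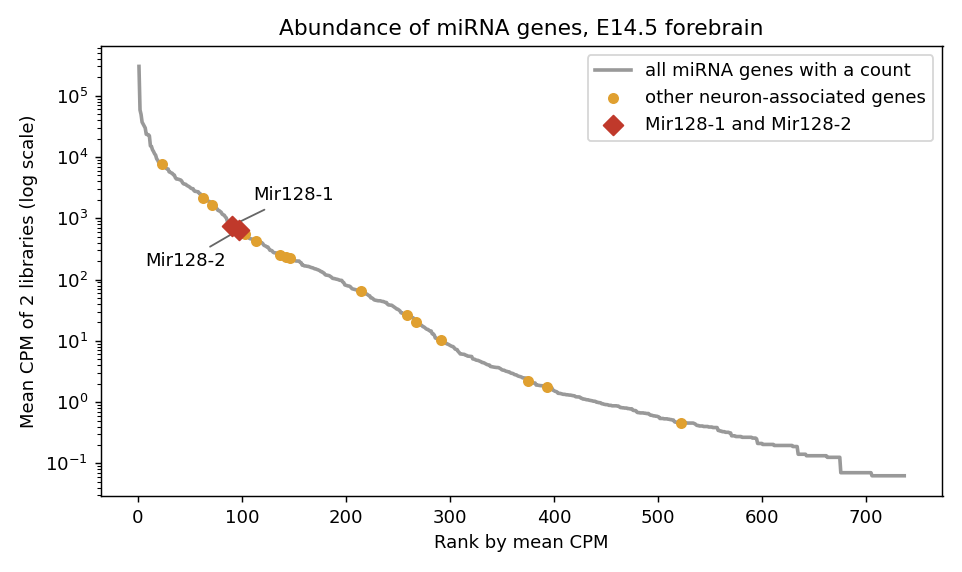
Mean CPM of the 2 libraries (log scale) for every miRNA gene with a count, by rank. The diamonds for Mir128-1 at 756 CPM and Mir128-2 at 644 CPM lie next to each other, at ranks 90 and 97, below Mir137, Mir7b and Mir153 among the neuron-associated genes.

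The loci held nearly equal counts. Mir128-1 made up 55.1% of the summed counts in replicate 2, with a 95% Wilson interval of 54.2 to 55.9, and 52.3% in replicate 1, with an interval of 51.2 to 53.4. The mean share was 53.7% ± 1.98 (SD, n = 2), so that Mir128-1 was the higher locus in both libraries. The share was 2.80 percentage points higher in replicate 2 than in replicate 1, a difference that passed Fisher's exact test, two-sided, on the table of both genes by both libraries (odds ratio 1.12, p = 7.97e-05, 1 test). The share needs no scaling of the libraries, and the test compares the reads of these libraries and knows counting error only.

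Other pairs of loci that encode an identical mature miRNA were mostly less even. In the RefSeq data, 30 pairs named as loci 1 and 2 of a miRNA have at least 1 identical mature sequence, and 17 of them had 100 or more summed counts in each library, a minimum chosen after the values were seen. In the other 16 pairs the higher locus held a mean share from 54.7% to 99.0%, with a median of 80.0%, and it held more than 75% in 10 of them. miR-128 had the most even mean share of the 17 pairs. Its nearest neighbour was Mirlet7c, where Mirlet7c-2 held 56.4% in replicate 2 and 52.9% in replicate 1. The 2 pairs were not told apart, since their mean shares differ by less than the spread between the libraries. Then came Mir125b, with Mir125b-1 at 54.3% in replicate 2 and 60.7% in replicate 1. In replicate 2 Mir125b was more even than miR-128, so the first place of miR-128 rests on the mean. Given its own spread between the libraries, Mir125b was not told apart from miR-128 either. Among neuron-associated pairs, Mir138-1 held 67.9% and 70.0%, Mir218-2 held 70.9% and 72.6%, Mir7-1 held 77.4% and 77.1%, and Mir129-2 held 78.4% and 78.8% in replicates 2 and 1. All of these shares are shares of reads that map to 1 place, and how the shared mature miRNA divides between loci is not in the tables.

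**Figure D3:**
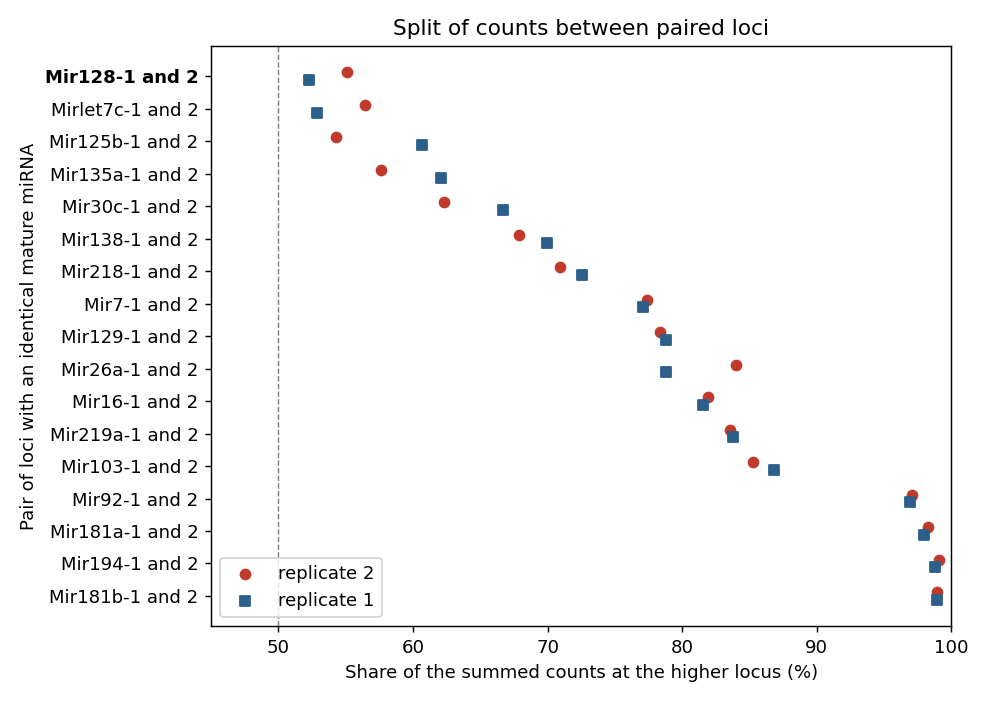
Share of the summed counts held by the higher locus (percent, axis from 45 to 100), for 17 pairs of loci with an identical mature miRNA, in replicate 2 (circles) and replicate 1 (squares). The miR-128 pair at the top lies at 55.1% and 52.3%, close to the dashed line at 50%, while 10 other pairs have a mean share above 75%.

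Both miR-128 genes were higher in replicate 2 than in replicate 1. Mir128-1 had a ratio of CPM, replicate 2 over replicate 1, of 1.60, with a 95% counting interval of 1.54 to 1.66 (adjusted p = 8.06e-132). Mir128-2 had a ratio of 1.43, with an interval of 1.37 to 1.49 (adjusted p = 3.22e-66). The p-values come from Fisher's exact test (two-sided) for each gene against all remaining counts, with Benjamini-Hochberg adjustment over the 445 genes that had 10 or more counts in either library. This test knows counting error only, and 213 of the 445 genes (47.9%) passed it, of which 74 (16.6% of those tested) were higher in replicate 2 and 139 (31.2%) lower. That split depends on the scaling, with 93 higher and 101 lower under TMM factors and 102 higher and 92 lower under median-of-ratios factors. With a ratio of at least 1.5 required as well, 14 genes (3.15% of those tested) passed as higher in replicate 2, Mir128-1 among them and Mir128-2 not. That call turns with the scaling, since the ratio of Mir128-2 was 1.51 with TMM factors (exact binomial test, adjusted p = 4.04e-88) and 1.54 with median-of-ratios factors (adjusted p = 1.72e-97).

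The size of the ratios says more than the test. The median detected gene differed 1.17-fold between the libraries, and 95% of detected genes lay within 1.68-fold. Such distances from 1, here and below, depend on the scaling, since TMM and median-of-ratios factors raise all log2 ratios by 0.080 and 0.11. Mir128-1 had the 12th highest ratio toward replicate 2 among the 399 detected genes, and 27 of the 399 (6.77%) were at least as far from 1 in either direction. Mir128-2 had the 21st highest, and 59 of the 399 (14.8%) were at least as far from 1. Among the 192 detected genes at a mean of 100 CPM or more, a minimum not set in advance, Mir128-1 came 4th and Mir128-2 came 6th. Above or between them were Mir429 (2.23-fold) and Mir200b (1.69-fold) of the epithelial miR-200 family, Mir183 of the sensory cluster (1.69-fold) and Mir700 (1.45-fold). The remaining miR-200 genes, Mir200a (1.99-fold), Mir200c (1.88-fold) and Mir141 (1.98-fold), lay below 100 CPM and also passed the test as higher. The sensory cluster did not move as a whole, with ratios of 1.22 for Mir182 and 1.11 for Mir96.

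**Figure D4:**
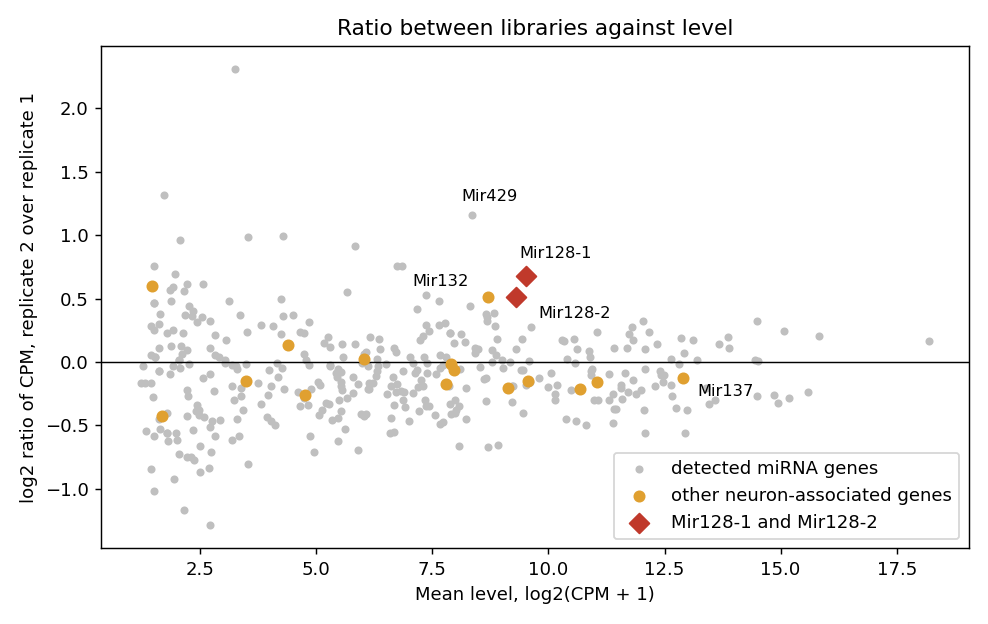
The log2 ratio of CPM, replicate 2 over replicate 1, against the mean level on the log2(CPM + 1) scale for the 399 detected miRNA genes. Mir128-1 at 0.68 and Mir128-2 at 0.51 lie above most genes of similar level, and Mir132 at 0.51 is the other labelled neuron-associated gene in the same range, while Mir137 lies at -0.13.

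A list of 18 neuron-associated miRNA genes, which holds both miR-128 genes, gave a context for their values. The list was written with earlier results of these data known. Its summed level, miR-128 genes included, was 15031 CPM (replicate 2) and 15673 CPM (replicate 1), a ratio of 0.959. The other 16 genes summed to 13344 CPM (replicate 2) and 14560 CPM (replicate 1), a ratio of 0.916. Of its 18 genes, 17 were detected. The median level of these 17, miR-128 genes included, was 7.97 on the log2(CPM + 1) scale, against 6.36 over all 399 detected genes. Mir137, which acts in neuronal differentiation, was the highest at 7274 CPM in replicate 2 and 7955 CPM in replicate 1. Mir7b followed at 2002 and 2238 CPM, and Mir153 at 1526 and 1773 CPM, in replicates 2 and 1.

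Mir128-1 came 4th in the list by mean CPM, just above Mir7-1 with 755 ± 56.1 CPM, and Mir128-2 came 6th, above Mir138-1 with 557 ± 55.1 CPM (SD, n = 2 each). Neither miR-128 gene was separated from Mir7-1 or Mir138-1, whose values overlapped with theirs, and the order of the 4 differed between the libraries. In replicate 2 the order was Mir128-1, Mir128-2, Mir7-1 and Mir138-1. In replicate 1 it was Mir7-1, Mir138-1, Mir128-1 and Mir128-2. Below them stood Mir132, an activity-induced miRNA, with 421 ± 104 CPM. Mir153 above and Mir132 below did not overlap with either miR-128 gene. Mir138-2, Mir129-2 and Mir7-2 had 222 to 250 CPM. The 3 Mir124a loci, which encode the best-known neuronal miRNA, had 3 to 18 counts in either library. Of the 18 genes, 13 share a run of 20 nt or more with another hairpin, both miR-128 genes and the Mir124a loci included. These levels therefore rank counts of reads that map to 1 place and not mature miRNAs.

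**Figure D5:**
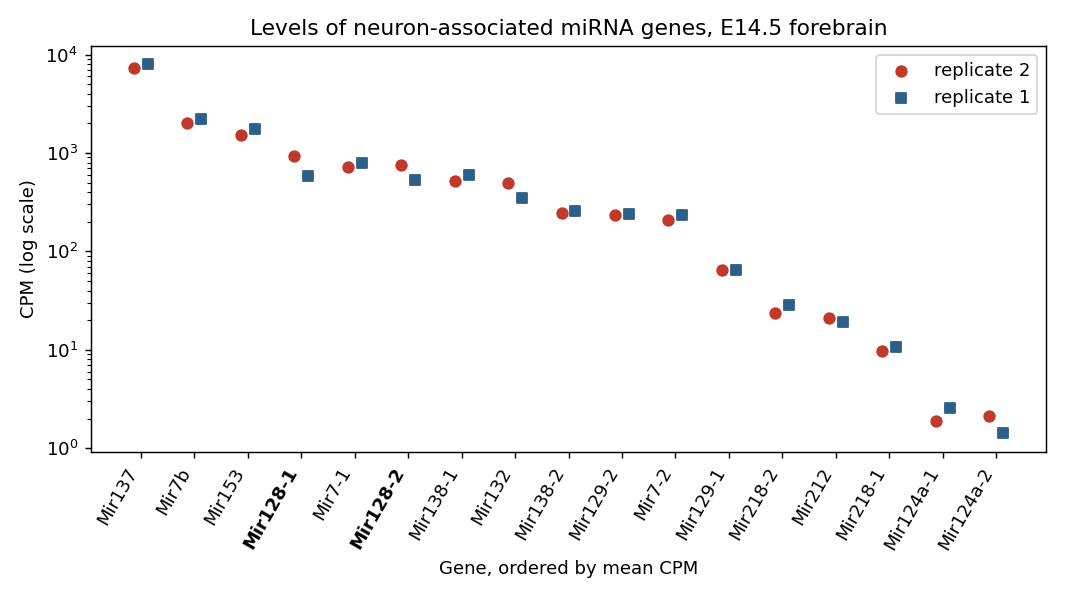
CPM (log scale) of the 17 detected neuron-associated miRNA genes in replicate 2 (circles) and replicate 1 (squares), ordered by mean CPM. Mir128-1 is at 930 and 582 CPM and Mir128-2 at 758 and 531 CPM in replicates 2 and 1, the circle above the square in both, as it is for Mir132 at 495 and 348 CPM.

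Of the 15 other detected genes of the list, 4 had a ratio above 1, against 151 of all 399 detected genes. With TMM or median-of-ratios factors it was 6 of the 15. These factors raise the log2 ratios of all genes by 0.080 and 0.11, so the 151 is not a background for the 6. As higher in replicate 2, 1 of the 15 passed the test, beside 16.6% of all genes tested, and 6 passed as lower, beside 31.2%, counts close to the background. The other 8 did not pass. The median ratio was 0.903, against 0.940 over all detected genes. The gene that passed as higher was Mir132, which had 3936 counts in replicate 2 and 2461 counts in replicate 1, a ratio of 1.43 (Fisher's exact test, adjusted p = 3.51e-43). Mir132 has a hairpin sequence of its own. Its neighbour from the same primary transcript, Mir212, had 166 and 135 counts in replicates 2 and 1, a ratio of 1.10 (Fisher's exact test, adjusted p = 0.571). Mir124a-2, with 17 and 10 counts, had a ratio of 1.51 that did not pass (adjusted p = 0.452).

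The remaining 12 genes of the list had ratios from 0.742 for Mir124a-1 to 1.02 for Mir129-1. The 6 that passed as lower in replicate 2 were Mir137, Mir7b, Mir153, Mir7-1, Mir7-2 and Mir138-1, at ratios of 0.861 to 0.914. The count of these lower calls was 5 with TMM factors and 3 with median-of-ratios factors, whereas both miR-128 genes and Mir132 passed as higher under both scalings. The difference between the miR-128 genes and the other genes of the list was not tested.

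Markers of other cell types moved by different amounts between the libraries, and their part in the miR-128 ratios was not tested. Over all 445 genes tested, 16.6% passed as higher in replicate 2 and 31.2% as lower, a split that depends on the scaling. The lists are short, and whether their calls exceed these shares was not tested. Blood miRNAs, with all 4 genes of the list in the table detected, had sums of 663 CPM (replicate 2) and 513 CPM (replicate 1), a ratio of 1.29. Of these, Mir144 (ratio 4.97) and Mir451a (1.31) passed the test as higher, while Mir223 (1.13) and Mir150 (1.08) did not pass. Smooth muscle and stromal markers (4 of 5 detected) summed to 4042 and 3621 CPM in replicates 2 and 1. The endothelial Mir126a stood at 22365 and 22103 CPM in replicates 2 and 1, and passed as higher at a ratio of only 1.01. Of the detected stromal markers only Mir143 (ratio 1.12) passed, as higher, while Mir145a (0.952), Mir214 (0.996) and Mir199a-2 (1.25) did not. The 6 choroid plexus or ciliated cell markers, all detected, had sums of 6660 CPM (replicate 2) and 8069 CPM (replicate 1), a ratio of 0.825. Their ratios ran from 0.409 for Mir449c to 0.952 for Mir204, and 4 of the 6 passed as lower. The 3 neural progenitor genes in the table, all detected, summed to 3348 and 4045 CPM, a ratio of 0.828. Mir92b (0.818) and Mir9-3 (0.876) passed as lower, while Mir9-2 (1.53) did not pass. Striated muscle markers summed to 13.6 and 19.2 CPM, with 3 of their 4 genes at 0, and Mir206 (0.708) passed as lower. The hepatocyte Mir122 stood at 10.2 and 10.3 CPM and did not pass. In a bulk tissue, more cells of a type and more RNA per cell cannot be told apart. Collection day also differs between the libraries, and it and other differences between embryos cannot be told apart.

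The genes most like each miR-128 gene were sought by the distance between their log2(CPM + 1) values over the 2 libraries. For Mir128-1 the closest was Mir195a, with 867 CPM (replicate 2) and 716 CPM (replicate 1), at a distance of 0.32 log2 units. Mir128-2 came second at a distance of 0.32, before Mir1193 (0.37), Mir674 (0.48) and Mir134 (0.52). For Mir128-2 the closest was Mir134, with 651 CPM (replicate 2) and 606 CPM (replicate 1), at a distance of 0.29. Mir1193 followed at 0.30, Mir128-1 at 0.32, Mir187 at 0.42 and Mir340 at 0.43. The genes other than miR-128 in these lists had ratios between the libraries of 0.959 to 1.21, so that their likeness lies in the level more than in the ratio.

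The seed of miR-128-3p is also found, shifted by 1 base, in the miR-27 miRNAs, regulators of lipid metabolism and blood vessel growth. The letters CACAGUG were searched on the given strand of the mature sequences and occur in 10 of 1679 mature miRNAs of the RefSeq table (0.596%). Only miR-128-3p has them at bases 2 to 8. The miR-27 sequences are shown with these letters in capitals, at bases 3 to 9.
mmu-miR-27a-3p: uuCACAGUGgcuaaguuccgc
mmu-miR-27b-3p: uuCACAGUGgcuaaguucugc

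Mir27b had 2863 counts in replicate 2 and 2620 counts in replicate 1, or 365 ± 6.90 CPM (SD, n = 2), which is below both miR-128 genes. Mir27a had 349 and 328 counts, or 45.1 ± 1.70 CPM. Neither passed the test between the libraries (ratios of 0.974 for Mir27b and 0.948 for Mir27a, Fisher's exact test, adjusted p = 0.437 for Mir27b and higher for Mir27a). The match is one of letters, and nothing about shared targets was measured. Of the other genes whose mature miRNAs hold these letters elsewhere, Mir101a stood at 341 CPM, Mir33 at 50.3 CPM and Mir216a at 9.38 CPM. Mir33, which lies in a gene of cholesterol regulation, had 475 and 289 counts in replicates 2 and 1 and passed as higher in replicate 2 (ratio 1.46, Fisher's exact test, adjusted p = 8.35e-07). Mir497b had 2 counts in each library, and Mir6335 and Mir682 had 0, which allows up to 0.378 CPM (replicate 2) or 0.424 CPM (replicate 1) at a floor of 3 counts. The gene of miR-3073b was not analysed here.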

How the data were processed

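The deposited values are read counts per miRNA gene, with a table for each library. The README files state that the counts come from a single alignment to mm10 with GENCODE M4. Aligner and counter: not given in the sources used here. The 4 totals that name no gene (unmapped 16.8%, multi-mapping 42.7%, unannotated 2.21% and ambiguous 0 reads, as means) stayed out of library sizes and tests.

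Counts on the gene's strand were scaled to CPM. GENCODE M21 named 1894 of 1973 gene IDs. Fisher's exact test with Benjamini-Hochberg adjustment (threshold 0.05) used SciPy 1.17.1, and alternative factors came from edgeR 4.0.16 (TMM) and DESeq2 1.42.0 (median of ratios), with an exact binomial test. The script was tested on simulated data. Sequences came from RefSeq on GRCm38.p6.

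The genes and lists were chosen with earlier results of these data known. Named are the miR-128 genes, the neuron-associated list, the 5 genes nearest in level, pairs of loci with an identical mature miRNA, genes with the miR-128-3p seed and the most abundant gene. Mir429, Mir200b, Mir183, Mir700, Mir200a, Mir200c, Mir141, Mir182 and Mir96 were named after their values were seen.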

Additional observations from a re-analysis of the deposited data

How the results depend on the processing

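Both miR-128 genes kept a ratio above 1 toward replicate 2 and an adjusted p under 0.05 in every alternative run, with ratios of 1.60 to 1.72 for Mir128-1 and of 1.43 to 1.54 for Mir128-2. Median-of-ratios factors moved all log2 ratios up by 0.11. Levels depend on the denominator by construction. Per 1000000 sequenced reads, Mir128-1 stood at 290 and Mir128-2 at 247, and with totals that leave out the most abundant gene they stood at 1088 and 926 CPM. Leaving out each library in turn gave ranks of 86 to 102 for Mir128-1 and 90 to 104 for Mir128-2. When both miR-128 genes were ranked among only those hairpins that share no 20-nt run with another, the ranks were 70 and 75, since fewer genes are ranked. With at least a 1.5-fold difference, 34 genes differed between the libraries. An alternative with all sequenced reads as the total, chosen after seeing the data, gave 208. With 2 libraries the spread is coarse, and reads shared by both loci are in no gene count.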
